A study of Mus musculus with 2 samples.

Results

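The genes of the Indian hedgehog and parathyroid hormone-related protein (PTHrP) loop were followed through the spatial transcriptome of a healing tibial fracture. They were chosen by symbol, *Ihh*, *Ptch1*, *Smo*, *Hhip*, *Gli1*, *Gli2*, *Gli3*, *Pthlh* and *Pth1r*, and all 9 were present among the 19430 genes named in the count tables. Tissue was taken from 2 female littermates, a control of the genotype *Nf1* +/fl that carried no *Postn*-cre and a mouse of the genotype *Postn*-cre; *Nf1* fl/-, called Nf1Postn. In Nf1Postn, Cre is made from the periostin promoter, which is active in the periosteum, and deletes the floxed allele of *Nf1*, the gene of the RAS inhibitor neurofibromin, beside a germline null allele. Both mice carried 1 floxed allele, were given as 8 weeks old, and had a distal tibia fracture held by an intramedullary pin. At 10 days after fracture both calluses were decalcified in 14% EDTA and embedded in 1 block, of which 2 sections were placed on Visium slides. The labels call these sections biological replicates. The study design describes sections of 1 block with 1 callus of each genotype, so they were treated as coming from the same pair of mice. Differences are therefore given for each section and pooled, with intervals that cover counting error only, and no test between genotypes could be made.

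Indian hedgehog is a secreted ligand made by chondrocytes as they leave the cell cycle and begin to enlarge. It binds Patched 1, which otherwise silences Smoothened, and freed Smoothened lets the GLI transcription factors switch on targets that include *Ptch1*, *Gli1* and *Hhip* themselves. In the growth plate, hedgehog signaling maintains PTHrP, encoded by *Pthlh*, and PTHrP acts through its receptor *Pth1r* to delay hypertrophy and with it the making of *Ihh*. Fracture callus cartilage passes through the same stages before it is replaced by bone, and *Col10a1*, the collagen of hypertrophic cartilage, marks the last of them.

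GLI proteins bind the consensus GACCACCCA, and these letters were searched on both strands within 5 kb on each side of the gene start of the 9 genes, in mouse genome GRCm39 with GENCODE vM39. *Ptch1* and *Pth1r* held matches and the other 7 genes did not, against 7.8% of 21751 protein-coding genes with at least 1 match. In 10 promoter windows of 8 of the genes (250 bases before to 50 bases after a start, GRCm38.p6), 0 genes held the motif, beside 0.253% of 32851 windows. The 4 matches are shown because both genes were among those higher around *Col10a1*-rich spots. *Ihh*, *Hhip* and *Gli1* were also higher there and held no match. Capitals mark the motif, each sequence runs 5′ to 3′ on the strand that carries it, and distances count from the gene start.
*Ptch1*, chr13:63721269-63721297, minus strand, 129 bases downstream, in an untranslated part of an exon: tggcgcggcaGACCACCCAcgccgagggc
*Ptch1*, chr13:63717089-63717117, minus strand, 4309 bases downstream, in an intron: cctcagccctGACCACCCAagtcgagcag
*Pth1r*, chr9:110573011-110573039, plus strand, 3234 bases downstream, in an intron: ggaaagcacaGACCACCCAcccactaccc
*Pth1r*, chr9:110580344-110580372, minus strand, at -4099 bases, outside the gene: catggacaagGACCACCCAcataaaggat
Both *Pth1r* matches also lie within the span of *Myl3*, a neighboring muscle myosin gene. A match describes the letters only, and binding was not measured.

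Each spot counts unique molecular identifiers (UMIs), that is, probe pairs captured over a 100 μm grid, and levels are given as CPM, the UMIs of a gene per 1000000 UMIs over all spots of a group. Each gene has its own probes, so levels are compared between spots and not between genes. Control spots were deeper than Nf1Postn spots, with medians of 7053 and 5719 against 2030 and 3240 UMIs in sections 1 and 2. *Col10a1*-rich spots, those with at least 1000 CPM and 5 UMIs of *Col10a1*, numbered 207 and 55 in the control callus. The Nf1Postn callus had 0 in both sections. In shallow spots 5 UMIs amount to more than 1000 CPM, so the rule was stricter for most Nf1Postn spots. Muscle markers were higher in the Nf1Postn tissue, with summed levels of 70232 and 123084 CPM against 15339 and 24860 in control. The genotype calls below were also made without muscle, marrow, fat and nerve spots. There *Ihh*, *Ptch1* and *Hhip* were kept at -1.90, -1.39 and -1.55 on the log2 scale. That setting leaves out whole spots and does not remove muscle RNA from the others. In spots that no marker list led, muscle markers still summed to 70686 and 72925 CPM in Nf1Postn and 15282 and 37233 CPM in control.

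Over whole calluses, *Ihh*, *Ptch1*, *Hhip* and *Pth1r* were at least 2-fold lower in both sections of Nf1Postn, *Gli2* in section 2 only, *Smo*, *Gli1* and *Gli3* in neither, and *Pthlh* was not lower (plot of levels by genotype). A spot holds several cells, so fewer cells of a type and less RNA per cell cannot be told apart. A gene was called where it differed at least 2-fold the same way in both sections and had at least 50 UMIs in each. By this rule 4 of the 9 genes were lower and none was higher, whereas 1.58% of 11851 genes were called lower and 4.21% higher. The median log2 ratio was -1.08 over the 9 genes and -0.09 over all genes tested.

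*Ihh* stood at 22.9 and 13.0 CPM in the control callus and at 2.89 and 4.34 CPM in the Nf1Postn callus, in sections 1 and 2. Both Nf1Postn values lay below both control values, and the log2 ratio was -2.26 (95% interval -2.79 to -1.77). Without *Col10a1*-rich and cartilage-marker spots of both calluses, a setting added after the data were seen, it was -1.58. Skeletal muscle spots, which should lack the gene, held an *Ihh* UMI in 0 of 15 control spots (an exact 95% upper limit of 21.8%, median depth 5428 UMIs) and in 1 of 290 Nf1Postn spots (median depth 3065), while 354 of 3478 control spots held at least 1 (median depth 6370).

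*Ptch1*, the receptor and a target, was at 118 and 108 CPM in control and at 36.4 and 37.8 CPM in Nf1Postn. The sections of each genotype were close to each other and far from those of the other genotype, with a log2 ratio of -1.61 (-1.77 to -1.45). *Hhip*, a membrane protein that captures hedgehog ligands, had 23.1 and 13.3 CPM in control and 8.09 and 3.84 CPM in Nf1Postn, a log2 ratio of -1.77 (-2.22 to -1.35). *Smo*, which carries the signal inward, fell short of the 2-fold rule, with 139 and 135 CPM against 108 and 85.4 CPM and a log2 ratio of -0.55 (-0.66 to -0.44). Its ratio was -0.23 without muscle, marrow, fat and nerve spots, also outside the interval.

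Among the transcription factors, *Gli1*, itself a target, had 79.0 and 75.2 CPM in control and 61.8 and 49.0 CPM in Nf1Postn, a log2 ratio of -0.53 (-0.67 to -0.38). Without muscle, marrow, fat and nerve spots the *Gli1* ratio was -0.15, outside that interval. *Gli2*, the main activator of the early response, had 23.0 and 24.4 CPM against 13.6 and 9.86 CPM, a log2 ratio of -1.08 (-1.39 to -0.78), past 2-fold in section 2 only. *Gli3*, mainly a repressor, had 36.4 and 42.4 CPM against 35.5 and 29.9 CPM and a log2 ratio of -0.29 (-0.48 to -0.11), which was 0.063 without muscle, marrow, fat and nerve spots. The 2 targets *Ptch1* and *Gli1* thus differed in the size of their genotype ratio, and their intervals do not overlap.

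*Pth1r*, the PTHrP receptor, had 429 and 310 CPM in control and 180 and 132 CPM in Nf1Postn, which gave a log2 ratio of -1.32 (-1.40 to -1.24). It was the call that did not hold without muscle, marrow, fat and nerve spots, at -0.94, or without *Col10a1*-rich and cartilage-marker spots, at -1.15 with 1 section under 2-fold. *Pthlh* ran the other way, with 5.31 and 10.4 CPM in control and 14.4 and 11.0 CPM in Nf1Postn. Its log2 ratio was 1.44 (0.89 to 1.98) in section 1 and 0.09 (-0.37 to 0.53) in section 2, so section 1 carried the pooled value of 0.67.

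**Figure D1:**
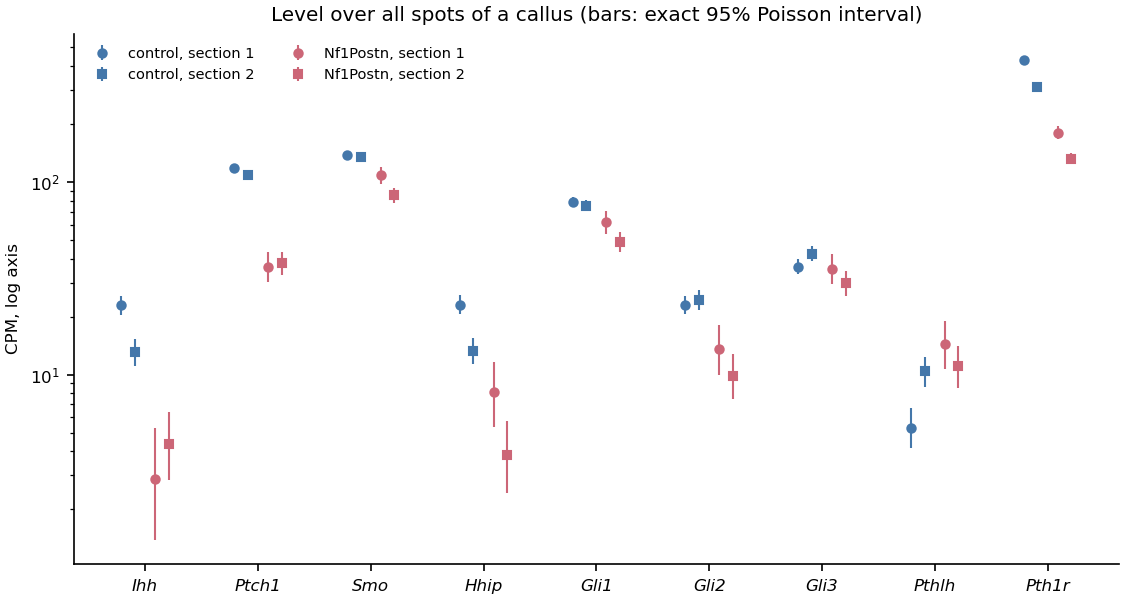
Level of each gene over all spots of a callus in CPM on a log axis, for control and Nf1Postn in sections 1 and 2, with exact 95% Poisson intervals as bars. *Ihh*, *Ptch1*, *Hhip* and *Pth1r* lie at least 2-fold lower in Nf1Postn in both sections, *Gli3* overlaps in section 1, and *Pthlh* lies higher in section 1 only.

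Few other genes of the pathways were called by genotype. Over all 11851 genes tested, 4.21% were called higher and 1.58% lower. Of 22 other hedgehog genes tested, 1 was called higher and none lower, with 19 ratios below 0, 3 above and a median of -0.24. A count of 1 in 22 is near the share of all genes called higher. The call was *Dhh*, which encodes the ligand Desert hedgehog of nerve sheath cells (6.93 and 8.52 CPM against 2.95 and 3.38 CPM). Summed nerve markers were also higher in Nf1Postn, at 155 and 275 CPM against 100 and 91.5 CPM in control. Their part in the *Dhh* difference was not tested. Of 14 tested genes of PTHrP signaling, 1 was called lower, *Nkx3-2*, a cartilage repressor of hypertrophy (2.89 and 2.17 CPM against 12.8 and 8.33 CPM). The genes of cartilage and hypertrophy were lower more often, at 10 of 12 and 5 of 12, with medians of -2.40 and -1.26 on the log2 scale.

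Within the control callus, *Ihh* was concentrated in *Col10a1*-rich spots (map of the sections). The label of these spots as hypertrophic was checked against other genes of that stage. Compared with spots rich in cartilage markers (mainly *Col2a1* and its partners), they held more of *Mmp13*, a collagenase of late cartilage (923 and 669 CPM against 286 and 320 CPM), and less of *Sox9*, the regulator of early cartilage (727 and 625 CPM against 1672 and 1663 CPM). Of 12 hypertrophy genes, 10 had ratios above 0 and 2 below, and 4 were called higher, *Col10a1* itself, *Mmp13*, *Ibsp* and *Spp1*. Summed bone formation markers were also higher (3527 and 4287 against 1340 and 1253 CPM), as were osteoclast markers (7693 and 5087 against 2070 and 2511 CPM). These spots thus also held RNA of bone and osteoclasts, and the check does not settle the label.

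*Ihh* reached 135 and 160 CPM in *Col10a1*-rich spots and 13.4 and 9.62 CPM in all other control spots, a log2 ratio of 3.60 (3.32 to 3.87). *Hhip* followed, at 89.8 and 94.5 CPM against 17.4 and 11.4 CPM and a log2 ratio of 2.65 (2.34 to 2.95). *Ptch1* was higher by 1.11 (0.94 to 1.28), with 221 and 269 CPM against 110 and 104 CPM. In section 1 its log2 ratio was 1.01, just past 2-fold. This *Ptch1* call was lost with *Col10a1*-rich set from 2000 CPM (0.86) and after thinning to 1000 UMIs (0.97). *Pth1r* reached 740 and 767 CPM against 403 and 299 CPM and was not called, since section 1 fell under 2-fold.

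In these spots 3 of the 9 genes were called higher, whereas 0.522% of 11294 genes were, and 2 were called lower, *Gli3* and *Pthlh*, beside 2.73% of all genes. *Gli3* had 18.9 and 18.2 CPM against 37.8 and 43.0 CPM, a log2 ratio of -1.11 (-1.74 to -0.53), and 6 of 11 alternative settings did not keep this call. *Pthlh* rested on 2 and 1 UMIs in the *Col10a1*-rich spots, with a log2 ratio of -1.83 (-4.12 to -0.26). *Gli1*, *Gli2* and *Smo* showed ratios of 0.11, 0.44 and -0.06, with intervals that include 0.

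**Figure D2:**
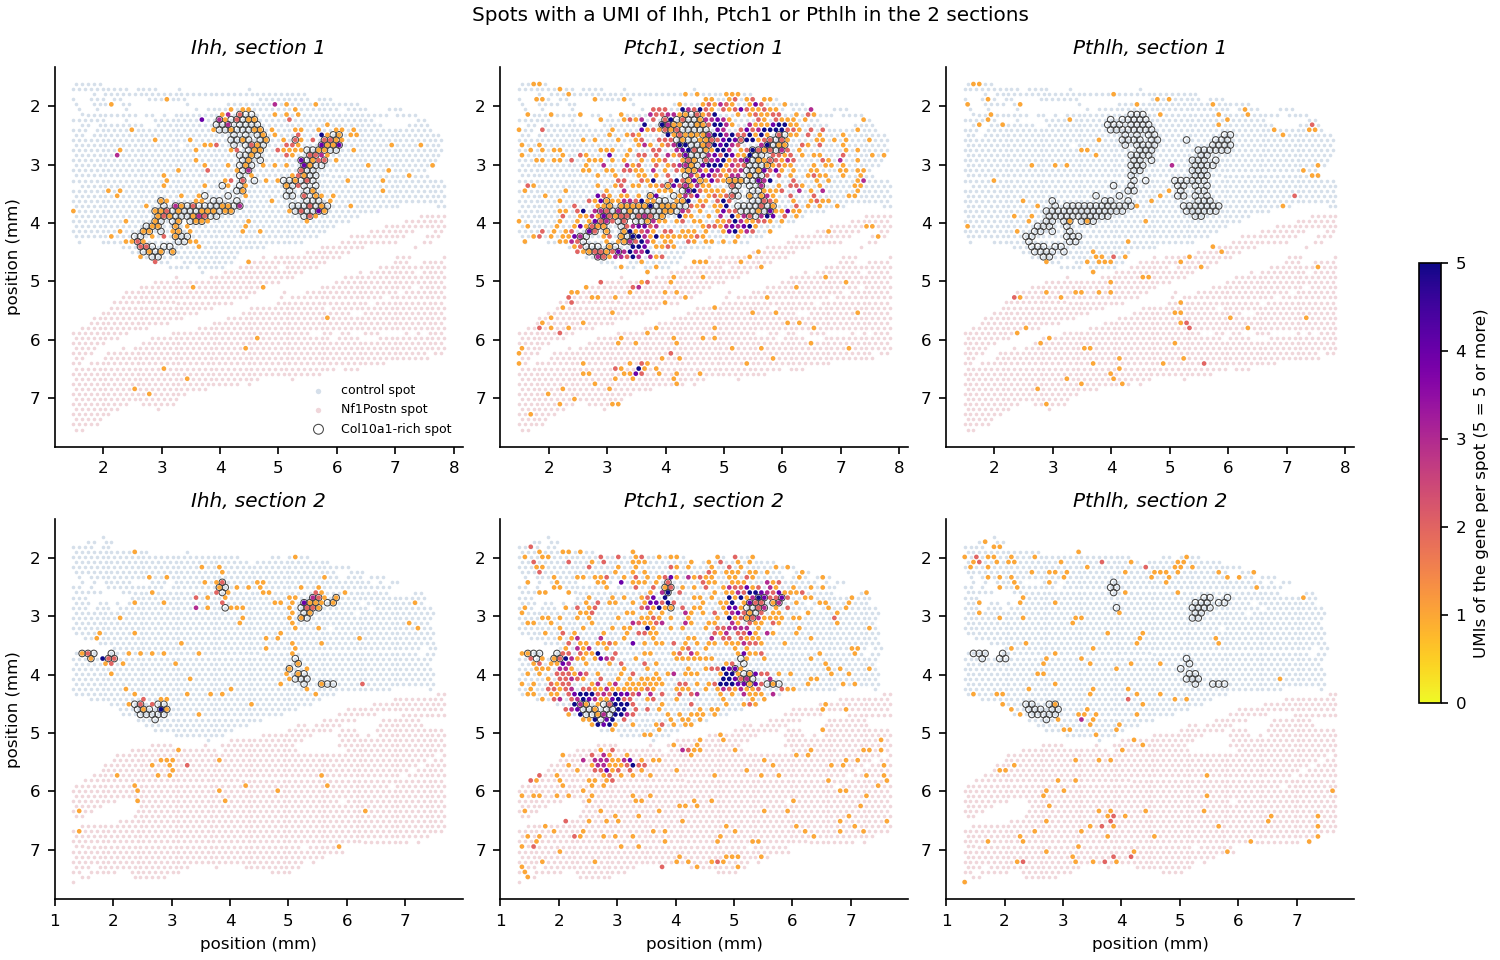
Maps of sections 1 and 2 with the position of each spot in mm, control spots in pale blue, Nf1Postn spots in pale red, *Col10a1*-rich spots as circles, and spots with a UMI of *Ihh*, *Ptch1* or *Pthlh* colored by their UMIs of that gene. *Ihh* follows the *Col10a1*-rich bands, *Ptch1* extends into the tissue around them, *Pthlh* is scattered outside them, and the lower callus has no *Col10a1*-rich spot.

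*Col10a1*-rich spots were also compared with cartilage-marker spots, that is, within cartilage. *Ihh* stood at 135 and 160 CPM in *Col10a1*-rich spots and 30.6 and 27.8 CPM in cartilage-marker spots, a log2 ratio of 2.24 (1.88 to 2.60), and was the only call among 5 genes tested, beside 1.46% of 4385 genes called higher and 1.35% called lower. *Ptch1* stood at 221 and 269 CPM against 213 and 302 CPM, and its ratio of -0.07 had an interval of -0.26 to 0.12. The means of log2(CPM + 1) over spots, which weight shallow and deep spots alike, differed by -1.20 for *Ptch1*. By that measure *Ptch1* was called lower in *Col10a1*-rich spots. *Smo* and *Gli1* differed by -1.14 each by the same measure and were not called. *Col10a1*-rich spots were shallower, with median depths of 4801.5 and 4188.5 UMIs against 9489.5 and 6614 in cartilage-marker spots. The part of depth in these mean differences was not tested. *Pth1r* gave 0.14 (0.03 to 0.25), also far below 2-fold. *Hhip* had 89.8 and 94.5 CPM against 17.9 and 13.5 CPM, a ratio of 2.46 (1.99 to 2.95), but under 50 UMIs in section 2 and was therefore left out of the calls.

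Levels were then followed with distance from the nearest *Col10a1*-rich spot, in rings of the control callus (plot of levels by distance). *Ihh* dropped first, to 39.6 and 39.0 CPM up to 150 μm, 13.2 and 11.9 CPM from 150 to 350 μm and 3.70 and 1.88 CPM beyond 1500 μm. *Hhip* had a similar course, 51.3 and 39.0 CPM up to 150 μm and 21.0 and 19.3 CPM from 150 to 350 μm, before single-digit levels from 350 to 1500 μm. Capture positions are 100 μm apart, so the first ring holds the direct neighbors of these spots.

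*Ptch1* reached further. It had 228 and 280 CPM up to 150 μm, no lower than the 221 and 269 CPM of the *Col10a1*-rich spots, and 153 and 171 CPM from 150 to 350 μm. It then stood at 62.7 and 81.4 CPM from 350 to 700 μm, 45.2 and 56.0 CPM from 700 to 1500 μm and 29.6 and 28.2 CPM beyond. The whole-callus level of the Nf1Postn mouse, 36.4 and 37.8 CPM, lay within the counting intervals of the control level beyond 1500 μm (16.9 to 48.1 and 15.8 to 46.4 CPM). That ring rested on 16 and 15 *Ptch1* UMIs. Fat spots made up 20.9% of it in section 1, and marrow and tendon-like spots 30.6% and 22.4% in section 2. Overlap between such unlike sets of spots does not show equal levels.

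*Gli1* was highest outside the *Col10a1*-rich spots. It had 77.5 CPM (61.6 to 96.2) in them, 98.2 up to 150 μm and 116 (105 to 127) from 150 to 350 μm in section 1, and 105 (70.6 to 151), 141 and 129 (116 to 144) CPM in section 2. In section 1 the interval from 150 to 350 μm lay above that of the *Col10a1*-rich spots, and in section 2 the intervals overlapped. Beyond 350 μm it was between 24.4 and 62.8 CPM in all rings. The targets thus took different courses with distance from *Col10a1*-rich spots, with *Hhip* falling from the first ring, *Ptch1* level to 150 μm and *Gli1* highest up to 350 μm. By distance from control spots with at least 2 *Ihh* UMIs, *Hhip* had 58.8 and 59.8 CPM in them and 54.2 and 31.8 CPM up to 150 μm. *Ptch1* had 190 and 286 CPM in them and 197 and 193 CPM up to 150 μm. For both genes the intervals of these spots and of that ring overlap in each section. Different courses of *Hhip* and *Ptch1* are thus not shown around *Ihh* spots. *Gli1* there had 92.0 and 123 CPM from 150 to 350 μm and 84.0 and 65.6 CPM from 350 to 700 μm. Cartilage-marker spots made up 46.3% and 34.6% of the first ring around *Col10a1*-rich spots and 24.1% and 17.0% of the next. Signaling range was not tested.

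*Pth1r* went down at every step, from 740 and 767 CPM to 489 and 398 CPM from 150 to 350 μm and 81.5 and 131 CPM beyond 1500 μm. *Pthlh* was higher far away, going from 1.89 and 3.63 CPM in *Col10a1*-rich spots to 6.55 and 12.4 CPM from 350 to 700 μm and 20.4 and 28.2 CPM beyond 1500 μm, on 11 and 15 UMIs. *Gli3* was lowest in *Col10a1*-rich spots and highest between 350 and 1500 μm, at 50.4 CPM (350 to 700 μm) in section 1 and 50.2 CPM (700 to 1500 μm) in section 2.

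**Figure D3:**
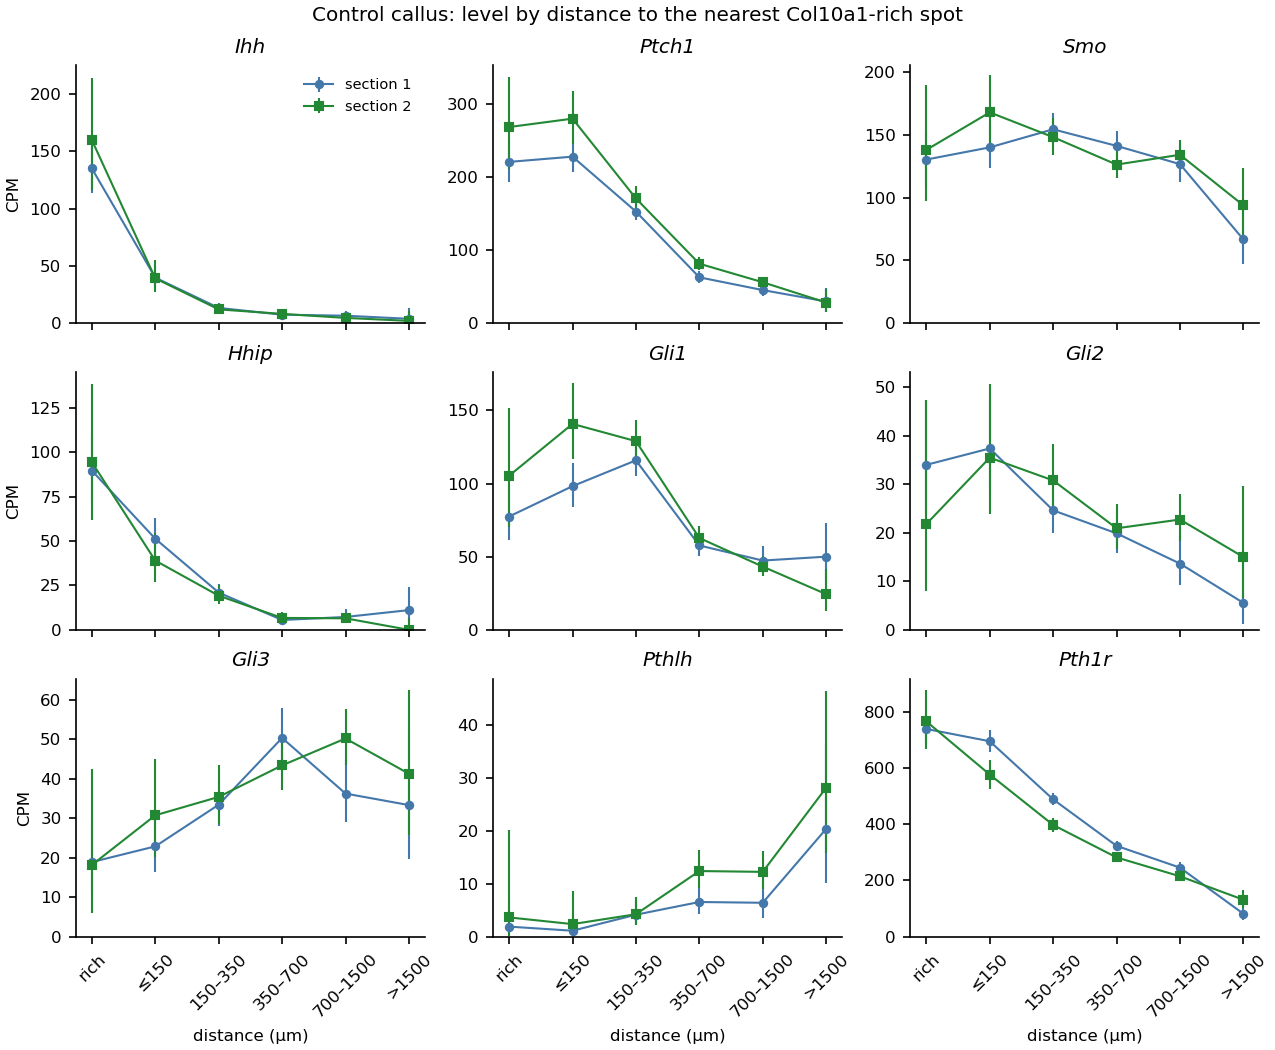
Level in CPM of each gene in *Col10a1*-rich spots and in 5 rings of distance from the nearest of them, control callus, sections 1 and 2, with exact 95% Poisson intervals. *Ihh* and *Hhip* fall within 350 μm, *Ptch1* stays level to 150 μm, *Gli1* is highest up to 350 μm, and *Pthlh* is highest beyond 1500 μm.

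Near spots, up to 350 μm and without the *Col10a1*-rich spots themselves, were compared with far spots beyond 700 μm. Of 8 genes tested, 5 were called higher near, whereas 1.05% of 10476 genes were called higher and 3.58% lower. The log2 ratios were 2.09 (1.65 to 2.56) for *Hhip*, 2.08 (1.56 to 2.63) for *Ihh*, 1.93 (1.76 to 2.09) for *Ptch1*, 1.44 (1.26 to 1.62) for *Gli1* and 1.29 (1.21 to 1.38) for *Pth1r*. *Gli1* lost its call with *Col10a1*-rich spots taken from 500 CPM, *Pth1r* with near and far split at 500 μm (0.97) and after thinning to 1000 UMIs (1.07), and *Ihh* and *Hhip* after thinning and by the mean of log2(CPM + 1) over spots (0.85 and 1.03), by which *Smo* was called higher (1.68). Near spots were also deeper, with ring medians of 7918 and 10461 UMIs in section 1 and 6921.5 and 7077 in section 2. Ring medians beyond 700 μm were 5317 and 3650 UMIs in section 1 and 5101 and 5931 in section 2. *Pthlh* had 18 and 13 UMIs near and 26 and 64 far, with a ratio of -1.83 (-2.47 to -1.23). In section 1 these were too few for the call. Of 20 other hedgehog genes tested, only *Kif7*, a kinesin of the hedgehog pathway in the cilium, was called, at 36.3 and 34.9 CPM near and 15.6 and 14.5 CPM far.

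Cartilage markers also ran along this axis, with 11 of 12 cartilage genes called higher near and a summed cartilage marker level of 69752 and 59330 CPM against 6411 and 7164 CPM far. Summed muscle markers ran the opposite way, 5497 and 11937 CPM near and 47089 and 35882 CPM far. Without cartilage-marker spots, a setting also added after the data were seen, the ratios were 1.62 for *Ihh*, 1.55 for *Ptch1*, 1.45 for *Gli1* and 1.07 for *Pth1r*, and the last was no longer called.

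The near and far difference was also read within spots of the same markers, a step added after the data were seen. In fibrous spots, *Ptch1* had 118 CPM near and 41.9 CPM far (log2 ratio 1.49, 0.91 to 2.11) and *Gli1* 147 and 55.0 CPM (1.42, 0.91 to 1.96). By section these ratios were 2.12 and 0.98 for *Ptch1*, under 2-fold in section 2, and 1.58 and 1.35 for *Gli1*. In spots without a leading marker list, the ratios were 1.74 (1.44 to 2.06) for *Ptch1* and 1.59 (1.28 to 1.92) for *Gli1*, with 1.59 and 1.99 for *Ptch1* and 1.02 and 2.21 for *Gli1* in sections 1 and 2. In osteoclast-marker spots they were smaller, 0.60 (0.08 to 1.16) and 0.55 (-0.23 to 1.41), and under 2-fold in both sections. In bone formation spots they were 0.91 (0.26 to 1.55) for *Ptch1* and 0.90 (0.05 to 1.72) for *Gli1*. By section these were 1.66 and 0.38 (-0.55 to 1.28) for *Ptch1*, and 1.01 (-0.25 to 2.13) and 1.66 for *Gli1*. In tendon-like spots *Ptch1* gave -0.15 (-2.50 to 1.54) on 3 UMIs near. Fibrous control spots still held *Col2a1*, at 9108 and 7201 CPM in sections 1 and 2. Control spots without a leading marker list held more. Cartilage RNA was not compared between near and far spots within a region, so its part in these ratios was not tested.

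**Figure D4:**
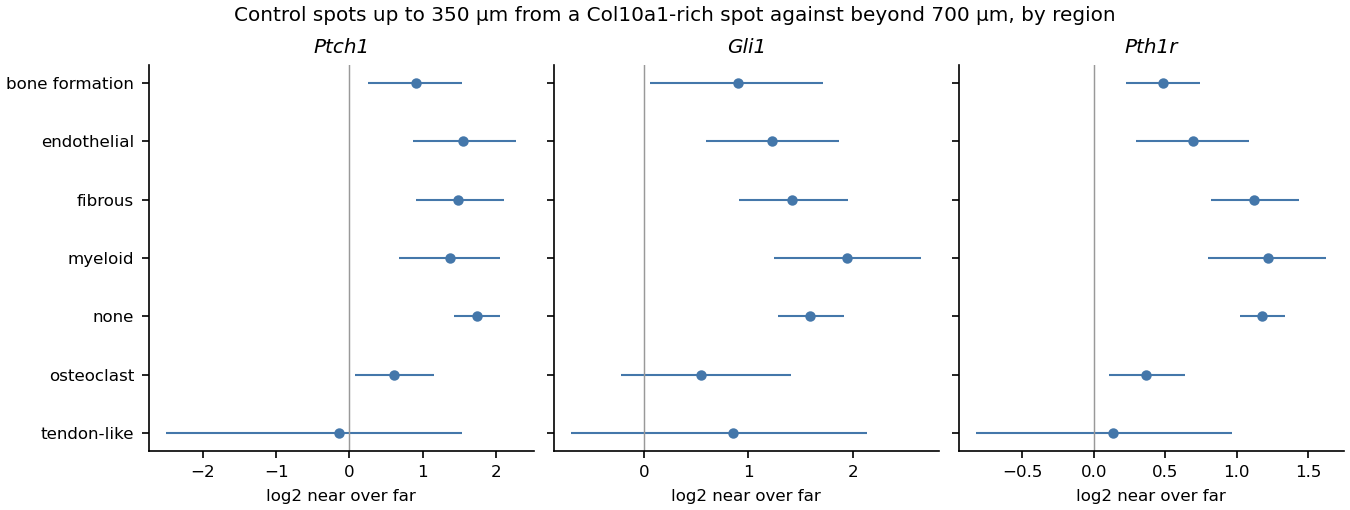
Log2 ratio of *Ptch1*, *Gli1* and *Pth1r* between control spots up to 350 μm from a *Col10a1*-rich spot and spots beyond 700 μm, both sections pooled, within each region, with exact 95% intervals as bars. Ratios lie above 0 in bone formation, fibrous, endothelial, myeloid and unmarked spots, and intervals include 0 for *Gli1* in osteoclast-marker spots and for all 3 genes in tendon-like spots.

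By region of the control callus, *Ihh* was highest in *Col10a1*-rich spots and next in cartilage-marker spots, and between 0 and 26.4 CPM elsewhere. *Pth1r* was next highest after cartilage in bone formation spots, at 411 and 429 CPM, and in osteoclast-marker spots, at 447 and 379 CPM, and lower in fibrous spots, at 219 and 212 CPM. *Pthlh* was low in both cartilage groups, at most 3.63 CPM, and had 20.3 and 19.5 CPM in tendon-like spots, 10.1 and 11.1 CPM in fibrous spots and 12.5 and 13.4 CPM in endothelial spots. The counting intervals of these last 3 overlap, so their order is not settled.

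**Figure D5:**
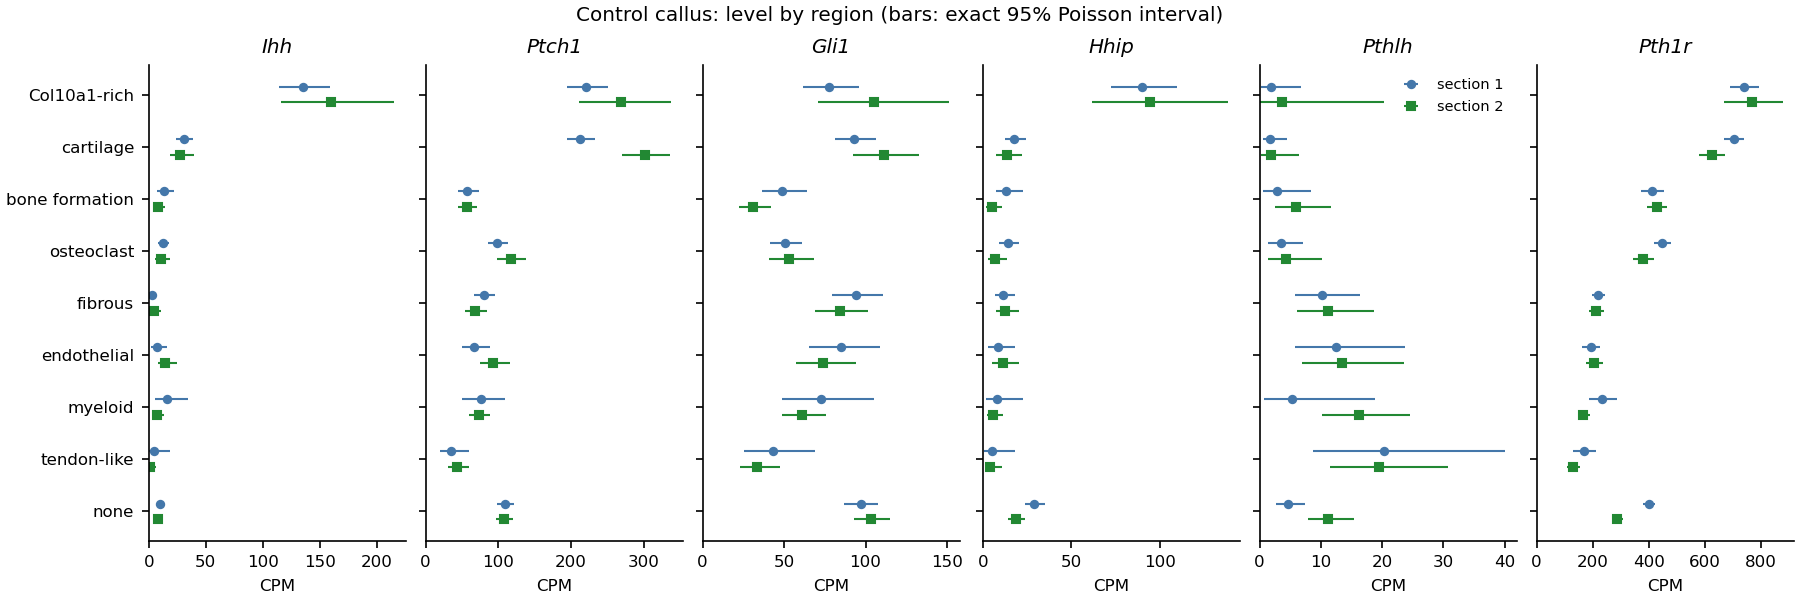
Level in CPM of 6 genes in 9 regions of the control callus, sections 1 and 2, with exact 95% Poisson intervals. *Ihh* and *Hhip* stand out in *Col10a1*-rich spots, and *Ptch1* is as high in cartilage-marker spots. *Pth1r* is also raised in bone formation and osteoclast-marker spots, and *Pthlh* is low in both cartilage groups.

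Both ligands of the loop were sparse, and few spots held both. In control, 354 spots had an *Ihh* UMI and 186 had a *Pthlh* UMI, and 10 had both, which is 2.82% of the former and 5.38% of the latter. Over all control spots, *Ihh* was found in 10.2% and *Pthlh* in 5.35%. By section, *Pthlh* was found in 2.64% (0.976 to 5.66) and 3.15% (0.865 to 7.87) of spots with *Ihh*, against 3.94% and 6.69% of all control spots. These intervals rest on 6 and 4 spots with both and include the shares over all control spots, so avoidance of the same spot is not shown by section. No interval was formed for the pooled share. Spots with *Ihh* were deeper than spots without, with medians of 7119 and 6797 against 7032.5 and 5683.5 UMIs. The median distance to a *Col10a1*-rich spot was 100 μm for spots with *Ihh*, 657 μm for spots with *Pthlh* and 520 μm for all control spots.

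At least 20 spots of each genotype in each section were found in 8 regions, and 24 pairs of gene and region could be tested. Spots without a leading marker list gave 7 of these pairs and fat spots 0. Of the 24 pairs, 1 was called lower and none higher, beside 0.888% of 31426 such pairs over all genes called lower and 1.3% higher. This was *Ptch1* in spots without a leading marker list, at 109 and 108 CPM in control and 39.7 and 34.9 CPM in Nf1Postn (log2 ratio -1.55, -1.88 to -1.23), where 0.649% of 9249 genes were called lower and 1.46% higher. In the same spots 9 of 12 cartilage genes were called lower, with a median log2 ratio of -1.51, and *Col2a1* had 12711 and 12778 CPM in control and 2024 and 4490 CPM in Nf1Postn. Summed muscle markers there were 15282 and 37233 CPM in control and 70686 and 72925 CPM in Nf1Postn. The part of cartilage or muscle RNA in the *Ptch1* difference was not tested. In bone formation spots *Pth1r* had 411 and 429 CPM in control and 377 and 442 CPM in Nf1Postn, a log2 ratio of -0.05 (-0.33 to 0.22). In fibrous spots *Ptch1* gave -0.55 (-1.04 to -0.09) and *Gli1* 0.40 (0.06 to 0.73). The control spots here include those near *Col10a1*-rich spots, which the Nf1Postn callus lacked by the rule used.

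The Nf1Postn callus held 1 connected band of 23 cartilage-marker spots in section 2, 750 by 261 μm and at least 438 μm from any control spot. It had 66.4 CPM of *Ihh* (30.4 to 126, 9 UMIs), 310 CPM of *Ptch1* and 1129 CPM of *Pth1r*, against 2.91, 31.5 and 109 CPM in the remaining 1533 spots of that callus and section. *Gli1* had 96.0 CPM in the band and 47.9 outside it, and *Smo* 192 and 82.9 CPM. *Hhip*, *Gli2* and *Gli3* had 1 UMI each in the band, 7.38 CPM (0.187 to 41.1), against 3.76, 9.92 and 30.4 CPM outside it. *Pthlh* was found in 0 of 23 spots (exact 95% upper limit 14.8%), and *Col10a1* had 11 UMIs there. In section 1 only 4 such spots were found, with 0 UMIs of *Ihh* at a median depth of 704 UMIs, where 3 UMIs would already be 1105 CPM.

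Likeness over 45 groups of region, section and genotype (Pearson's r of log2(CPM + 1), a description, since groups share sections and depth) put cartilage collagens next to *Ihh*, with *Col2a1* at 0.80 and *Col9a3* at 0.80 ahead of *Ptch1* at 0.79. *Ptch1* was most like the cartilage genes *Hapln1* at 0.89 and *Cnmd* at 0.89. *Pth1r* was most like *Alpl*, the alkaline phosphatase of mineralizing cells, at 0.96, above the 0.67 it shared with *Ihh*. *Pthlh* was most like *Scarb2* at 0.79, and ran against *Pth1r* at -0.58 and *Ptch1* at -0.48.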

How the data were processed

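Visium probe libraries of 2 sections were analyzed. The authors deposited, per section, UMI counts per gene and spot exported from Partek Flow without normalization, and these deposited values were taken as estimated counts since 10 genes hold values that are not whole. The submitters' processing notes name Space Ranger 1.3.0 and mm39. The authors also deposited spot positions and a genotype for each spot, which were taken unchanged. How the border between calluses was drawn is not given in the sources used here. 1 entry without a gene name (6.8e-05% and 3.8e-05% of UMIs) was left out, and 5 of 6380 spots had no genotype. The sections share 2711 barcodes because capture areas carry the same grid.

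Counts were summed over the spots of a group and divided by the group's UMIs (CPM), with exact Poisson intervals for levels and exact conditional binomial intervals for ratios. Regions were assigned by the highest summed marker list above its 90th percentile, with *Col10a1*-rich spots first. A group at 0 was given 3 counts. Genes beyond the 9 were named where called in a list (at most 6 per list) or among the 3 most alike. The members and lists were chosen with earlier results of these data known. Scaling by trimmed mean of M values (TMM) used edgeR 4.0.16 in R 4.3.3, and the other steps used Python 3.11.15, numpy 2.4.6, scipy 1.17.1 and pandas 2.3.3. The code was tested on simulated data. Alternatives were a section left out, mean of log2(CPM + 1), TMM, at least 1000 UMIs per spot, thinning to 1000 UMIs, other gene filters, other definitions of *Col10a1*-rich, of near and far and of regions, and tissue left out.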

Additional observations from a re-analysis of the deposited data

Results flagged for a closer look

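For *Gli1* and *Gli3*, the ratio between genotypes had opposite signs in 2 regions in both sections, and the difference between regions was not tested. The log2 ratio of Nf1Postn over control for *Gli1* was 0.40 in fibrous spots and -0.53 in spots without a leading marker list. For *Gli3* it was -0.37 in fibrous spots and 0.0785 in spots without a leading marker list, both with intervals that include 0, so no direction is shown. Neither gene was called in either region. The sections were treated as coming from the same mice, so agreement between them was not read as agreement between animals.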

How the results depend on the processing

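With the sections taken as 1 mouse per genotype, no setting bears on differences between animals. Of 447 log2 ratios of the 9 genes over 4 comparisons and 19 settings, 352 stayed within the main counting interval and 95 left it. None of the called ratios changed sign. The settings with no minimum of UMIs, with the 0.3% filter and with a minimum of 30 UMIs change only which genes are tested. Their ratios equal the main ones by construction and count among the 352. Means of log2(CPM + 1) over spots, which weight shallow spots as much as deep ones, account for 28 of the 95. By that mean 4 genes were called by genotype, as in the main setting, but *Smo* and *Gli1* took the place of *Ihh* and *Hhip*. TMM factors moved the median of all genes from -0.24 to -0.021, from -0.11 to -0.0025 and from 0.098 to -0.012 in the *Col10a1*-rich, near and far, and cartilage comparisons, and with them *Pth1r* was called higher in *Col10a1*-rich spots (1.31) and *Gli3* was not called lower. Thinning to 1000 UMIs, which leaves few UMIs of low genes, left 2 calls by genotype, 0 in *Col10a1*-rich spots, 2 near against far and 0 within cartilage, and *Pthlh* in *Col10a1*-rich spots could not be given a ratio. With *Col10a1*-rich set from 2000 CPM there were 2 calls in *Col10a1*-rich spots and 2 within regions. Within cartilage there were 2 calls by mean of log2(CPM + 1), where *Ptch1* was called lower (-1.20), and 2 calls with no minimum of UMIs, with genes in at least 0.3% of spots, and at the 80th percentile of the region rule, where *Hhip* was called higher. There were 1 and 2 calls without section 1 and without section 2. Within regions, where 1 call was made, there were 12 by mean of log2(CPM + 1), 5 with no minimum and 5 with the 0.3% filter, 2 at the 80th and 3 at the 95th percentile, and 8 and 5 without section 1 and section 2, when a gene needs a 2-fold difference in 1 section only. Of 27 likeness neighbors, 11 were shared when 10 replaced 1 as the pseudocount. The settings that leave out cartilage-marker spots were added after the data were seen, as was a minimum of 30 UMIs per section, with which *Pthlh* was called lower near, making 6 calls. The cause of these differences was not tested beyond the construction of each setting. No paired analysis was possible because each genotype was taken as 1 mouse, and ratios were formed within each section. Low depth in Nf1Postn limits *Ihh*, *Hhip* and *Gli2* most, with 36, 51 and 106 UMIs over both sections.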
